A study of Danio rerio with 50 samples.

Results

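Livers of adult male zebrafish (Danio rerio) kept for 24 h in water with 5 µg/L estradiol were compared with livers of untreated males sampled at the same time. The comparison holds 14 of the 50 arrays of the series, 6 of estradiol-treated fish and 8 of controls, and its members were taken by their titles. Each array measured liver RNA of a male, labelled with Cy5, against 1 common pool labelled with Cy3, made of liver RNA of wild-type fish of both sexes in equal amounts. The dyes were never swapped, so a dye effect that is equal on all arrays is part of every ratio and drops out when groups are subtracted. Whether a dye effect differed between groups was not tested. The labels call the arrays biological replicates but do not say whether they came from separate tanks, and p-values reflect only how far these samples spread. The labels state neither the strain nor the exact age of the fish. The other arrays used below were 6 of 0.5 µg/L and 6 of 50 µg/L estradiol at 24 h, and 4 of 5 µg/L estradiol and 7 of controls at 96 h.

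Estradiol is the main natural estrogen of vertebrates, and it acts through nuclear estrogen receptors that bind DNA and change the transcription of their target genes. In egg-laying vertebrates the liver of mature females answers to ovarian estradiol by making vitellogenin, the yolk precursor, which is secreted into the blood and taken up by growing eggs. The male liver makes little vitellogenin but has the receptors, so vitellogenin in males is widely used as a sign of exposure to estrogens. The liver is also the source of most plasma proteins, among them complement, clotting factors and lipoproteins.

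A level is given here as the log2 ratio of the fish liver to the mixed-sex pool after each array was centred on its median, so that 0 is the level of the pool relative to the typical probe. A difference is the log2 level in treated livers minus that in control livers, with its standard error (SE). A gene is said to have risen or fallen only where limma's moderated test, fitted to all 50 arrays and adjusted by the Benjamini-Hochberg method over 22046 probes, gave an adjusted p below 0.05. Levels and differences describe whole liver tissue, in which fewer cells of a type and less RNA per cell cannot be told apart.

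The 6 treated arrays were not equally alike. Arrays 1 and 5 correlated with the rest of their group at r = 0.929 and 0.926 over all probes, and array 6 at r = 0.863. Arrays 2 and 3 had r = 0.814 each with their own group and a higher r, 0.843 for array 3, with livers treated with 50 µg/L for 24 h, and array 4 had r = 0.872 with its own group and 0.887 with livers treated with 0.5 µg/L for 96 h. Array 3 also had the smallest share of probes above background in the Cy5 channel, 68.4%, against 92.0% on array 5. Control arrays had r of 0.896 to 0.951 with their group, and control array 4 was closer to the 96 h controls (0.906) than to its own group (0.899). Counts are therefore also given without treated arrays 2, 3 and 4, a choice made after the data were seen. Scanner files of the controls were not analysed here, so no signal over background is known for them.

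At 24 h, 5 µg/L estradiol changed 1340 of 22046 probes (6.08%), of which 645 rose (2.93%) and 695 fell (3.15%). Without treated arrays 2, 3 and 4 the test called 770 probes, 481 up and 289 down, and 705 of these were among the 1340. By probe, large rises were more numerous than large falls. More than 4-fold, 71 probes rose and 27 fell, and 32 rose by more than 16-fold against 0 that fell so far. These are not counts of genes. Of the 32 probes, 15 belong to vtg3 and 16 have no gene name here, as do 26 of the 71 and 9 of the 27. By gene, 699 of 9169 named genes changed (7.62%), 383 upward (4.18%) and 316 downward (3.45%). The median difference over all named genes was 0.02; each array had been centred on its median over all probes. Treated and control arrays did not overlap for 223 of the 699 changed genes (31.9%), and for 241 of all 9169 named genes (2.63%). Where a changed gene had further probes, 204 of these 248 probes had the same sign, 102 passed the test in the same direction and 0 passed in the opposite one. Genes with many probes weigh heavily in these counts, among them vtg3 with 15 probes and ccnd1 and gapdh with 16 each.

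The vitellogenins held the largest change among named genes. Of 6 vitellogenin genes tested, 2 rose and 0 fell. The level of vtg3 was 3.09 to 3.67 in treated livers, with a median of 3.37, against -3.88 to -2.95 in control livers, with a median of -3.37. Treated livers thus lay above the pool, which holds female RNA, and control livers lay below it, with no overlap. The difference was 6.81 ± 0.26 (SE), a 112-fold rise (limma adjusted p = 3.33e-27). The Cy5 spot of this probe was saturated on 4 of the 6 treated arrays, so the fold is as measured and a minimum. The array carries 15 probes of vtg3, and their differences ran from 6.54 to 7.16.

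The level of vtg7, which encodes another yolk precursor, was 1.51 to 2.15 in treated livers (median 1.99), against -4.52 to -2.54 in control livers (median -3.50). The groups lay far apart, and no treated spot was saturated. The rise was 5.37 ± 0.51, or 41.3-fold (adjusted p = 1.52e-11). The other 4 vitellogenin genes did not pass the test. In these 4 the control livers lay near the level of the pool, unlike in vtg3 and vtg7. Whether their probes detect the RNA was not tested, so an absent response cannot be told from an absent signal. The level of vtg2 was 0.20 to 0.86 in treated livers (median 0.37), against -0.02 to 1.14 in control livers (median 0.57). That of vtg4 was 0.01 to 1.03 in treated livers (median 0.20), against -0.42 to 0.78 in control livers (median -0.03). Both genes overlapped widely between the groups. The differences were -0.09 ± 0.15 for vtg2, 0.24 ± 0.19 for vtg4, -0.08 ± 0.18 for vtg5 and 0.16 ± 0.17 for vtg6, whose probe had values on 5 treated and 7 control arrays. Genes of this family are alike in sequence, and a probe may bind RNA of more than 1 of them.

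Among the estrogen receptors, esr1, which encodes receptor alpha and mediates vitellogenin synthesis in fish liver, was the only gene called of the 3 receptors tested. Its level was 2.68 to 4.25 in treated livers (median 3.40), against -0.39 to 0.62 in control livers (median 0.12). Every treated array lay above every control array. The rise was 3.27 ± 0.32, or 9.66-fold (adjusted p = 3.79e-11), and the Cy5 spot was above background on 4 of the 6 treated arrays. The beta receptors esr2a and esr2b had differences of -0.20 ± 0.21 and -0.23 ± 0.26 (adjusted p = 0.756 and 0.77). Of 9 receptors and cofactors tested, 1 rose and 2 fell. The 2 that fell were ncoa4, a nuclear receptor coactivator that also acts in ferritin breakdown, at -0.90 ± 0.19, and pgrmc1, a membrane protein that binds heme, at -0.78 ± 0.19. Without treated arrays 2, 3 and 4 neither passed, at -0.74 (adjusted p = 0.0734) for ncoa4 and -0.53 (adjusted p = 0.292) for pgrmc1. The egg coat genes, which some fish express in the liver under estrogen, gave 0 rises and 0 falls by limma among 9 tested, and 0 up and 1 down at an unadjusted p below 0.05.

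**Figure D1:**
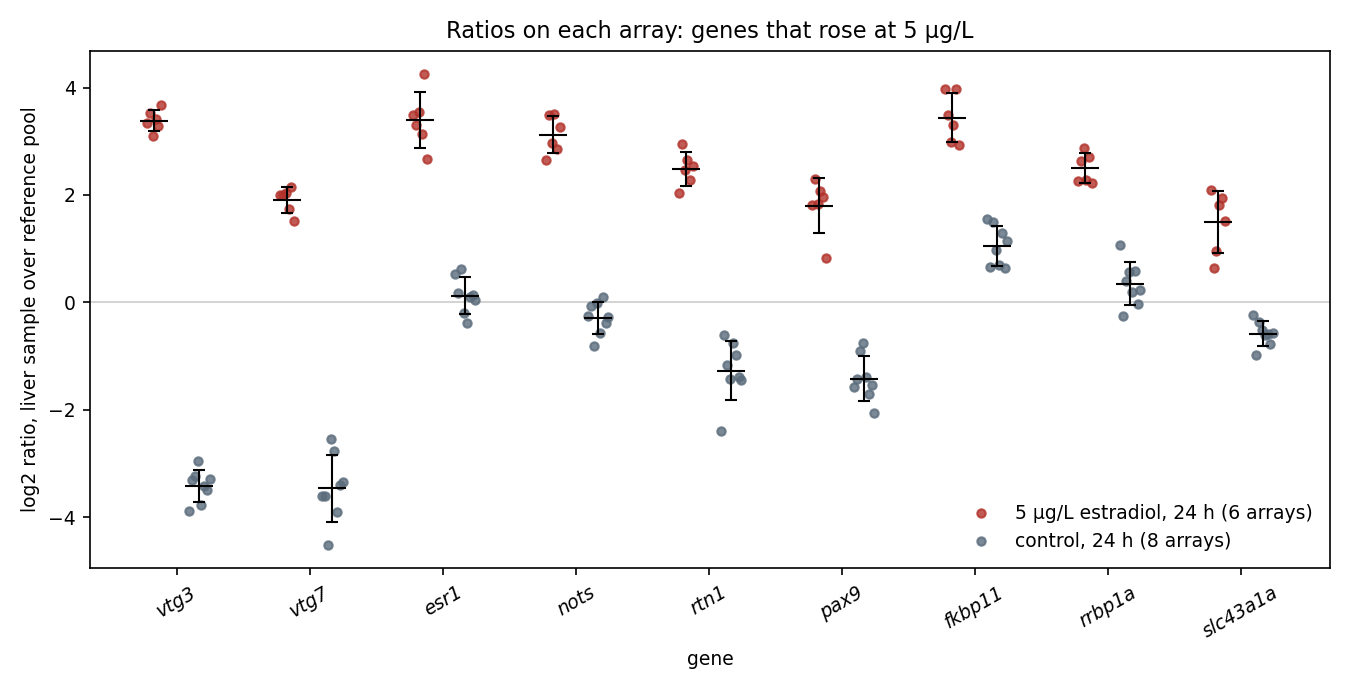
Log2 level relative to the mixed-sex liver pool (vertical axis) of 9 genes that rose, with 5 µg/L estradiol arrays (6, red) left of control arrays (8, grey) for each gene. Each point is 1 array and the black marks are the mean ± SD. In all 9 genes the lowest treated array lies above the highest control array, with the widest gap in vtg3.

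After vtg3 and vtg7, the largest rises among named genes included rtn1, nots and pax9. The gene rtn1 encodes a reticulon, a protein that shapes the membrane of the endoplasmic reticulum (ER). Its level was 2.03 to 2.94 in treated livers (median 2.5), against -2.4 to -0.60 in control livers (median -1.29), a rise of 3.75 ± 0.32, or 13.5-fold (adjusted p = 3.96e-13). The gene nots encodes nothepsin, an aspartic protease known from the liver of female zebrafish. Its level was 2.66 to 3.51 in treated livers (median 3.12), against -0.81 to 0.09 in control livers (median -0.27), a rise of 3.41 ± 0.26 (adjusted p = 1.96e-14). Neither gene overlapped between the groups, and both lay above the pool in treated livers and near or below it in control livers.

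The transcription factor gene pax9, known for its part in tooth and pharyngeal development, had a level of 0.83 to 2.29 in treated livers (median 1.90), against -2.06 to -0.76 in control livers (median -1.48). It rose by 3.22 ± 0.38 without overlap (adjusted p = 1.09e-08), and treated array 6 was the lowest of its group. Its probe number lies next to that of an unnamed probe with a rise of 6.21, whose Cy5 spot was saturated on all 6 treated arrays. Whether that probe affects the level of pax9 was not tested. Of genes of phospholipid synthesis, chka, which encodes choline kinase, rose by 2.38 ± 0.28 and pisd, which encodes phosphatidylserine decarboxylase, by 2.01 ± 0.37. Levels of pisd were widely spread in treated livers, 1.45 to 4.72, and overlapped with 0.36 to 1.96 in control livers. The stress-responsive gene nupr1b rose by 2.38 ± 0.25. The transporter gene slc22a23 rose by 2.27 ± 0.40 and gnai2, which encodes a G protein subunit, by 2.55 ± 0.28, although the other probe of gnai2 gave 0.32 (adjusted p = 0.236). The probe number of slc22a23 also lies next to that of an unnamed probe, which rose by 7.79 and was saturated on all 6 treated arrays.

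The genes fkbp11, rrbp1a and slc43a1a rose by more than 4-fold. The level of fkbp11, which encodes a prolyl isomerase of the ER in secretory cells, was 2.93 to 3.98 in treated livers (median 3.40), against 0.63 to 1.55 in control livers (median 1.06). It rose by 2.39 ± 0.32 (adjusted p = 2.79e-07). The level of rrbp1a, which encodes a ribosome-binding protein of the rough ER, was 2.22 to 2.88 in treated livers (median 2.45), against -0.26 to 1.06 in control livers (median 0.32). It rose by 2.15 ± 0.19 (adjusted p = 3.28e-12), and its other probes gave 1.2 and 1.80. The groups were separate for both genes. The level of slc43a1a, which encodes a transporter of large neutral amino acids, was 0.65 to 2.08 in treated livers (median 1.66), against -0.99 to -0.23 in control livers (median -0.58), and it rose by 2.07 ± 0.21 (adjusted p = 2.86e-10).

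A set of 3 further genes among the 15 largest rises had treated levels that differed widely between arrays. The level of chia.1, which encodes an acidic chitinase of the digestive tract, was -2.75 to 2.02 in treated livers (median -0.20), against -3.95 to -1.06 in control livers (median -3.71), a rise of 2.81 ± 0.66 (adjusted p = 0.00389). The level of apoea, which encodes an apolipoprotein E, was -4.78 to 0.96 in treated livers (median -0.94), against -5.03 to -2.90 in control livers (median -3.92), a rise of 2.62 ± 0.70 (adjusted p = 0.0122). The level of fabp1b.1, which encodes a fatty acid binding protein, was -1.59 to 0.55 in treated livers (median -0.90), against -4.32 to -1.68 in control livers (median -3.47), a rise of 2.37 ± 0.63 (adjusted p = 0.012). In each of the 3 genes treated array 3 was the lowest of its group and array 6 the highest. Without treated array 6 the rise of apoea was 2.17 and did not pass (adjusted p = 0.0619).

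On treated arrays 3 and 6, markers of intestine and endocrine pancreas were low and high as these genes were. The mean level of 3 intestine markers was -2.86 on treated array 3 and 0.05 on treated array 6 (median -1.48), against -2.70 to -1.60 in control livers (median -2.38). The mean level of 3 endocrine pancreas markers was -0.30 on treated array 3 and 3.19 on treated array 6 (median 2.61), against 0.04 to 2.73 in control livers (median 0.63). None of these 6 marker genes was called. The fatty acid binding protein gene fabp2, an enterocyte marker, had a difference of 1.37 ± 0.53 (adjusted p = 0.133), ins, the insulin gene, of 1.05 ± 0.55 (adjusted p = 0.338) and gcga, a glucagon gene, of 1.17 ± 0.54 (adjusted p = 0.239). Without treated array 3, fabp2 passed at 1.88 (adjusted p = 0.0173) and gcga at 1.69 (adjusted p = 0.0403). Among controls, array 4 had the highest level of ins, 2.63, with chia.1 at -3.81 and apoea at -3.78. The level of fabp1b.1 on that array was -1.76, near the top of its control range of -4.32 to -1.68. The mean level of 5 exocrine pancreas markers was lowest on treated array 5, at -0.84, and highest on treated array 6, at 1.00. The part of intestine and pancreas markers in the rises of chia.1, apoea and fabp1b.1 was not tested.

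**Figure D2:**
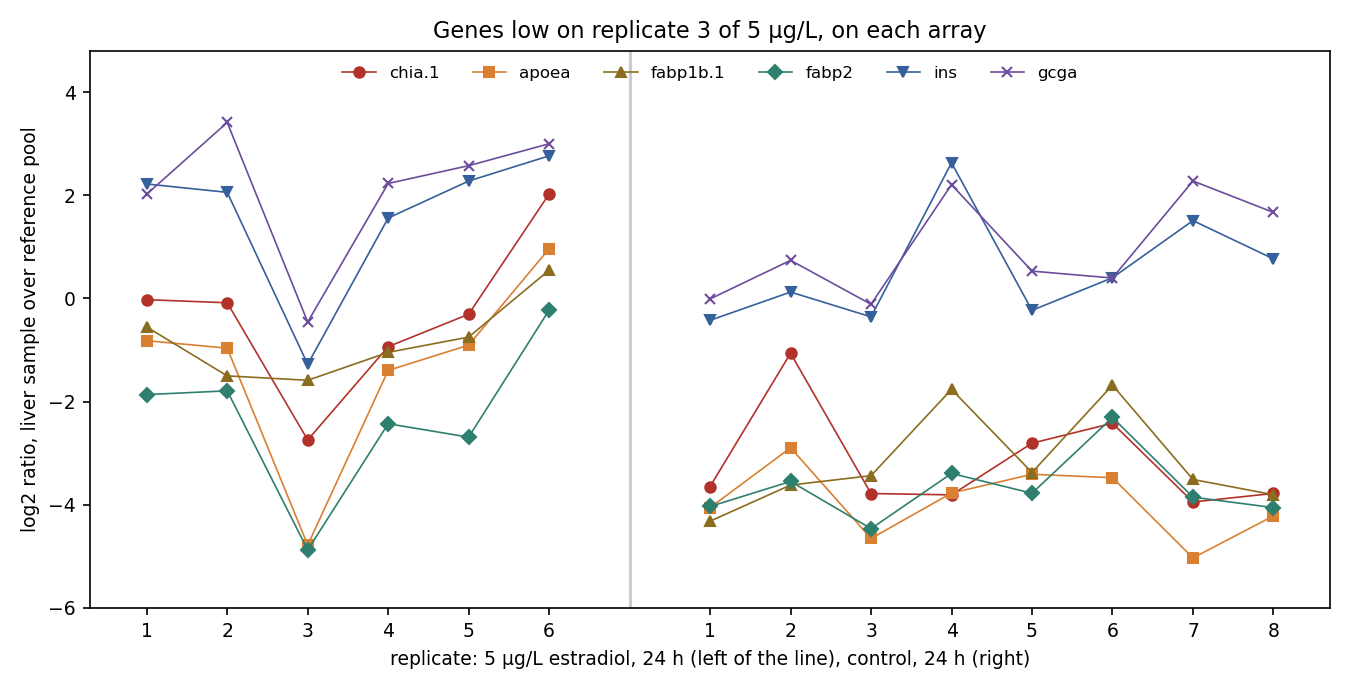
Log2 level relative to the pool (vertical axis) of chia.1, apoea, fabp1b.1, fabp2, ins and gcga on each array (horizontal axis), with 5 µg/L arrays 1 to 6 left of the vertical line and control arrays 1 to 8 right of it. All 6 genes are lowest among treated livers on array 3.

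No probe fell by more than 16-fold, and many of the largest falls were in genes of proteins that the liver secretes. The largest fall among named genes was that of hmox1b, which encodes a heme oxygenase that breaks down heme. Its level was 0.19 to 2.17 in treated livers (median 1.01), against 2.46 to 5.55 in control livers (median 3.98), a fall of 2.76 ± 0.46 on the log2 scale (adjusted p = 2.88e-05). Complement genes followed. The level of c9, which encodes the pore-forming last component of complement, was 0.45 to 1.55 in treated livers (median 1.05), against 2.93 to 4.06 in control livers (median 3.71). Its difference was -2.57 ± 0.31 (adjusted p = 3.33e-08), and its other probe gave -2.43. The groups were separate for both genes.

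Genes for the central complement component C3 fell at 3 copies. The level of c3a.2 was -0.01 to 1.76 in treated livers (median 1.04), against 2.67 to 3.90 in control livers (median 3.62), with a difference of -2.49 ± 0.33. The differences of c3a.3 and c3a.1 were -2.21 ± 0.37 and -1.74 ± 0.33. These copies are alike in sequence, and signal may be shared between them. The level of hp, which encodes haptoglobin, the plasma protein that binds free hemoglobin, was 0.87 to 1.67 in treated livers (median 1.43), against 3.12 to 4.48 in control livers (median 3.61). Its difference was -2.24 ± 0.33 (adjusted p = 2.37e-06). The level of apoeb, which encodes an apolipoprotein E, was -1.44 to -0.24 in treated livers (median -0.72), against 0.78 to 2.33 in control livers (median 1.87), with a difference of -2.54 ± 0.38 (adjusted p = 4.71e-06). The 2 apolipoprotein E genes thus had opposite signs, apoea up and apoeb down.

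Carrier proteins and hormone-metabolizing enzymes were also among the largest falls. The level of selenop2, which encodes a selenoprotein P, was 0.56 to 2.46 in treated livers (median 1.61), against 3.12 to 4.20 in control livers (median 3.66), with a difference of -2.09 ± 0.24 (adjusted p = 4.56e-09). The level of serpina7, which in humans encodes thyroxine-binding globulin, was within 1.59 to 1.87 in treated livers (median 1.80), against 3.17 to 4.50 in control livers (median 3.72), with a difference of -1.97 ± 0.33 (adjusted p = 2.74e-05). The level of hsd17b3, whose human enzyme converts androstenedione to testosterone, was within -0.54 to -0.15 in treated livers (median -0.26), against 0.69 to 2.82 in control livers (median 1.92). Its difference was -2.18 ± 0.26 (adjusted p = 1.7e-08). None of these 3 genes overlapped between the groups, and the treated levels of serpina7 and hsd17b3 were the more tightly grouped ones.

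Further large falls were in upp2, which encodes a uridine phosphorylase, at -2.16 ± 0.33, in vav3b at -2.12 ± 0.32, and in ugt5a2, which encodes a glucuronosyltransferase, at -1.88 ± 0.24. Several calls in this range rested on 1 probe or on few arrays. The transcription factor gene mef2ca gave -2.03 ± 0.40 at its representative probe and 0.13 at the other, and crp2, a C-reactive protein gene, gave -1.98 ± 0.44 against -0.32 and 0.09 at its other probes. The difference of rgs2, which encodes a regulator of G protein signalling, was -1.87 ± 0.49 (adjusted p = 0.0106), but its control levels ran from -1.44 to 3.92. Without treated arrays 2, 3 and 4 its adjusted p was 0.102, and with only the 14 arrays compared 0.101, and with the controls of both times pooled the difference was -0.97 (adjusted p = 0.268).

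**Figure D3:**
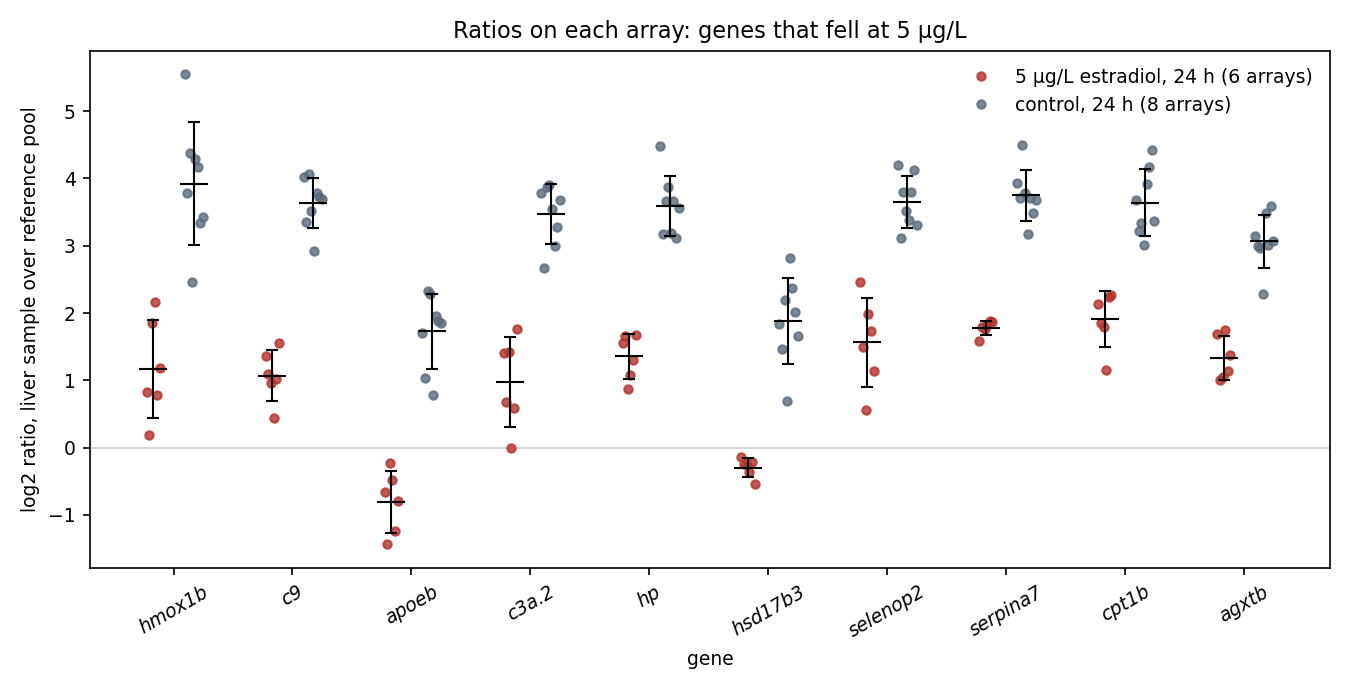
Log2 level relative to the mixed-sex liver pool (vertical axis) of 10 genes that fell, with 5 µg/L estradiol arrays (6, red) left of control arrays (8, grey) for each gene. Each point is 1 array and the black marks are the mean ± SD. In all 10 genes the highest treated array lies below the lowest control array.

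Gene lists by function were read against all 9169 named genes, of which 4.18% rose and 3.45% fell with a median difference of 0.02. The lists were chosen with earlier results of these data known, so they are described by counts and medians only. Where a list below has 0 members called in a direction, at most 3 of its members reached an unadjusted p below 0.05 in that direction, except oxidative phosphorylation, with 6 upward. Of 21 complement genes tested, 0 rose and 12 fell, with a median of -1.16. They included serping1, which encodes the C1 inhibitor, at -1.56 ± 0.25, although its other probe gave -0.13. Of 17 genes of coagulation and fibrinolysis, 0 rose and 10 fell, with a median of -0.89. Among them were f2, the prothrombin gene, at -1.43 ± 0.24, serpinc1, the antithrombin gene, at -1.39 ± 0.20, serpind1, the heparin cofactor gene, at -1.35 ± 0.25, and kng1, the kininogen gene, at -1.34 ± 0.22. With quantile normalization serpinc1 and kng1 were -0.90 and -0.89 and still passed. Levels of serpinc1 were 2.02 to 3.01 in treated livers (median 2.34), against 3.51 to 4.18 in control livers (median 3.73). Clotting factors and their inhibitors were both among the members that fell.

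Of 24 genes of the acute phase response and plasma transport, 0 rose and 10 fell, with a median of -0.77. Without treated arrays 2, 3 and 4, the members that fell were 10 in complement, 8 in coagulation and 5 in the acute phase list. Of 18 genes of apolipoproteins and lipid transfer, 1 rose and 6 fell, with a median of -0.60. Apart from the apolipoprotein E genes above, apom, whose product carries sphingosine 1-phosphate in plasma, fell to 2.00 to 3.18 in treated livers, against 3.32 to 4.17 in control livers, a difference of -1.17 ± 0.20. With quantile normalization between arrays its difference was -0.66 (adjusted p = 0.0848). The structural apolipoprotein gene apobb.1 had a difference of -1.09 ± 0.26, which without treated arrays 2, 3 and 4 was -0.63 (adjusted p = 0.364), and probes of the gene gave -1.03 and 0.07 besides. Without these 3 arrays, 3 members of the apolipoprotein list were called.

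In lipid metabolism, synthesis of fatty acids and triglycerides had more falls than rises, and cholesterol synthesis had neither. Of 23 genes of fatty acid and triglyceride synthesis, 1 rose and 9 fell, with a median of -0.51, and 4 were called without treated arrays 2, 3 and 4. The level of elovl6, which encodes an elongase of saturated fatty acids, was -0.58 to 0.27 in treated livers (median -0.32), against 0.10 to 2.24 in control livers (median 1.68), a difference of -1.84 ± 0.33. The groups overlapped only at control array 1, which lay far below the other controls. The desaturase gene fads2 had a difference of -1.73 ± 0.42. The genes dgat2, which encodes the enzyme that joins the last fatty acid to triglycerides, and agpat3, an acyltransferase gene of phospholipid synthesis, had -1.13 ± 0.20 and -1.09 ± 0.21. Of 16 genes of cholesterol synthesis, 0 rose and 0 fell at this dose and time, with a median of 0.19 and 13 members measured above 0. At an unadjusted p below 0.05 limma gave 1 up and 0 down. Its member hmgcs1, which encodes the enzyme before the rate-limiting step, had a difference of 1.15 ± 0.41 (adjusted p = 0.0956). It passed without control array 3 at 1.35 (adjusted p = 0.0401), without treated array 1 at 1.39 (adjusted p = 0.0475), without treated array 4 at 1.38 (adjusted p = 0.044) and with array weights at 1.24 (adjusted p = 0.0346).

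Fatty acid oxidation changed little by count, with 0 rises and 2 falls among 27 genes and a median of -0.16. The falls were cpt1b, which encodes a carnitine palmitoyltransferase that admits fatty acids to mitochondria, at -1.73 ± 0.24, and acaa1, a peroxisomal thiolase gene, at -0.93 ± 0.19. The level of cpt1b was 1.15 to 2.28 in treated livers (median 1.99), against 3.00 to 4.43 in control livers (median 3.52). Of 37 genes of glycolysis, gluconeogenesis and glycogen, 0 rose and 9 fell, with a median of -0.10, and without treated arrays 2, 3 and 4 there were 5 falls. They included pygl, the liver glycogen phosphorylase gene, at -1.16 ± 0.22, tpi1b, a triosephosphate isomerase gene, at -1.15 ± 0.23, and pgm1, a phosphoglucomutase gene, at -1.02 ± 0.22. The glucose 6-phosphatase gene g6pc1a.1, whose enzyme releases glucose from the liver, had a difference of -1.74 ± 0.37, which without the 3 arrays was -1.49 (adjusted p = 0.0582).

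Among 48 genes that break down amino acids or form urea, 2 rose and 7 fell, with a median of -0.19. The level of agxtb, whose enzyme transfers amino groups to glyoxylate, was 1.00 to 1.75 in treated livers (median 1.26), against 2.29 to 3.59 in control livers (median 3.04), a difference of -1.73 ± 0.19 (adjusted p = 7.82e-10). Both genes of tryptophan dioxygenase, the enzyme that opens the tryptophan ring, fell, with -1.40 ± 0.17 for tdo2a and -1.53 ± 0.22 for tdo2b. In the opposite direction bcat1, a branched-chain transaminase gene, rose by 1.29 ± 0.23. Of 11 amino acid transporters, 1 rose and 4 fell. The member that rose was slc43a1a, described above, and slc38a4, a transporter of neutral amino acids, fell to 0.46 to 1.52 in treated livers, against 1.81 to 3.22 in control livers, a difference of -1.58 ± 0.28.

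Endocrine genes of the liver also had falls only. Of 12 genes of the insulin-like growth factor (IGF) and growth hormone axis, 0 rose and 5 fell, with a median of -0.64, and 2 fell without treated arrays 2, 3 and 4. The binding protein gene igfbp2a had a difference of -0.93 ± 0.22. Those of igf1, the main growth factor that the liver sends out, and of igfbp1a were -0.93 ± 0.28 (adjusted p = 0.0285) and -1.32 ± 0.38 (adjusted p = 0.0245). For igf1 the call ended without any of treated arrays 1, 4, 5 and 6 or control arrays 6 and 8, with differences of -0.84 to -0.88. For igfbp1a it ended without any of treated arrays 3, 5 and 6 or control arrays 1 and 7, with differences of -1.13 to -1.28, and with quantile normalization and pooled controls its differences were -0.81 (adjusted p = 0.142) and -0.89 (adjusted p = 0.113). Of 26 genes of steroid and thyroid hormone metabolism, 0 rose and 5 fell, with a median of -0.23, and 4 fell without treated arrays 2, 3 and 4. Besides hsd17b3 they included sult1st3, which encodes a cytosolic sulfotransferase, at -1.21 ± 0.22, and shbg, which encodes the plasma carrier of sex steroids, at -1.15 ± 0.22, although the other probe of shbg gave 0.48.

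Enzymes of drug metabolism changed in both directions. Of 24 cytochrome P450 genes, 3 rose and 3 fell, with a median of -0.26. The level of cyp2k16 was 0.52 to 1.84 in treated livers (median 0.84), against -1.65 to -0.40 in control livers (median -0.85), a rise of 1.94 ± 0.28, and cyp2k6 of the same subfamily rose by 1.5 ± 0.32. The gene cyp1a, a target of the aryl hydrocarbon receptor, had a difference of -1.43 ± 0.29. Of 36 genes of conjugation and aldehyde metabolism, 2 rose and 5 fell, with a median of -0.18. Of these comtd1, which encodes a methyltransferase, fell to 0.65 to 1.40 in treated livers, against 2.22 to 3.06 in control livers, a difference of -1.74 ± 0.26.

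Lists of protein synthesis moved the other way, by smaller amounts. Ribosome biogenesis had the highest count of rises, 36 of 77 genes with 0 falls and a median of 0.56. The level of tsr1, which encodes a factor of small ribosomal subunit assembly, was 0.84 to 1.74 in treated livers (median 1.41), against -0.44 to 0.43 in control livers (median -0.06), a rise of 1.5 ± 0.20. The genes nhp2 and nop58, which encode proteins of small nucleolar ribonucleoproteins, rose by 1.60 ± 0.22 and 1.25 ± 0.19, and npm1a, a nucleophosmin gene, by 1.57 ± 0.23. Cytosolic ribosomal proteins themselves had 2 rises and 2 falls among 69 genes and a median of 0.10. Spots of 27 of these 69 genes were saturated on at least 1 treated array. Their member rpl7l1, a paralog that acts in ribosome assembly, rose by 1.14 ± 0.16, while rps6 had -1.57 ± 0.22 at its representative probe and 0.14 and -0.16 at its others.

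Of 59 translation factors, 20 rose and 0 fell, with a median of 0.36. Examples are eif4ebp1, which encodes a repressor of cap-dependent initiation, at 1.13 ± 0.17, and denr, which encodes a factor of ribosome recycling and re-initiation, at 0.91 ± 0.16. Of 21 aminoacyl-tRNA synthetases, which charge tRNAs with their amino acids, 8 rose and 0 fell, with a median of 0.45. The synthetase genes for histidine (hars), serine (sars1) and tryptophan (wars1) rose by 0.89 ± 0.18, 0.84 ± 0.16 and 0.89 ± 0.21. Of 53 proteasome genes, 17 rose and 0 fell, with a median of 0.44, among them pomp, the assembly factor gene, at 0.85 ± 0.18, and psma2, a core subunit gene, at 0.65 ± 0.14. Without treated arrays 2, 3 and 4 the rises were 30 in ribosome biogenesis, 15 in translation factors, 8 in tRNA synthetases and 16 in the proteasome.

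Most ER genes did not pass the test. Of 67 genes of translocation, glycosylation and vesicle transport, 12 rose and 0 fell, with a median of 0.18, and 5 rose without treated arrays 2, 3 and 4. The level of ssr1, which encodes a subunit of the translocon-associated complex, was 2.49 to 3.89 in treated livers (median 3.04), against 0.73 to 2.04 in control livers (median 1.53), a rise of 1.63 ± 0.21. The cargo receptor gene lman1 and its partner mcfd2, which carry glycoproteins from the ER to the Golgi, rose by 1.18 ± 0.19 and 1.26 ± 0.27. Of 44 ER chaperones and genes of the unfolded protein response, 3 rose and 3 fell, with a median of -0.01. The transcription factor gene xbp1, a regulator of secretory capacity, rose by 1.1 ± 0.18. The chaperone genes pdia3 and calr, whose products fold glycoproteins, had differences of -0.96 ± 0.22 and -0.93 ± 0.26. Without treated arrays 2, 3 and 4 these were -0.76 (adjusted p = 0.11) for pdia3 and -0.73 (adjusted p = 0.273) for calr. The call of calr also ended without control array 1, at -0.72 (adjusted p = 0.0615), and without treated array 2, at -0.81 (adjusted p = 0.0658), and with pooled controls its difference was -0.54 (adjusted p = 0.195).

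Of 70 genes of DNA replication and mitosis, 13 rose and 0 fell, with a median of 0.32, and 6 rose without treated arrays 2, 3 and 4. The cyclin gene ccnd1, which acts in entry into the cell cycle, rose by 1.40 ± 0.24 at its representative probe, and 15 of its 16 probes rose. Of these probes, 12 have numbers next to or near those of unnamed probes with large rises, and 11 of the 12 rose. The other 4, among them the representative one, all rose, with a median of 1.51. The helicase subunit genes mcm3 and mcm6 rose by 1.35 ± 0.31 and 1.21 ± 0.23 and the kinase gene cdk2 by 1.18 ± 0.24. Of 74 splicing genes, 6 rose and 0 fell, with a median of 0.21, and 3 rose without the 3 arrays. Oxidative phosphorylation had 0 rises and 2 falls among 76 genes, with a median of 0.14. Counts in 2 further lists were 5 rises and 0 falls among 35 heat shock genes and 3 rises and 5 falls among 38 genes of oxidative stress defence. Of the stress defence genes, prdx4, which encodes a peroxiredoxin of the ER, rose by 1.07 ± 0.16.

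Lysosome genes numbered 3 rises and 3 falls among 36, with a median of -0.04. The lysosomal sterol-binding protein gene npc2.1 rose to 0.76 to 2.04 in treated livers, against -0.98 to -0.15 in control livers, a difference of 1.68 ± 0.25. The cathepsin gene ctsla had a difference of -1.45 ± 0.35, which without treated arrays 2, 3 and 4 was -1.19 (adjusted p = 0.156) and with the controls of both times pooled -0.73 (adjusted p = 0.261). Iron and heme genes had 1 rise and 4 falls among 25, with hmox1b and hp described above. The inflammasome adaptor gene pycard rose by 1.66 ± 0.29.

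**Figure D4:**
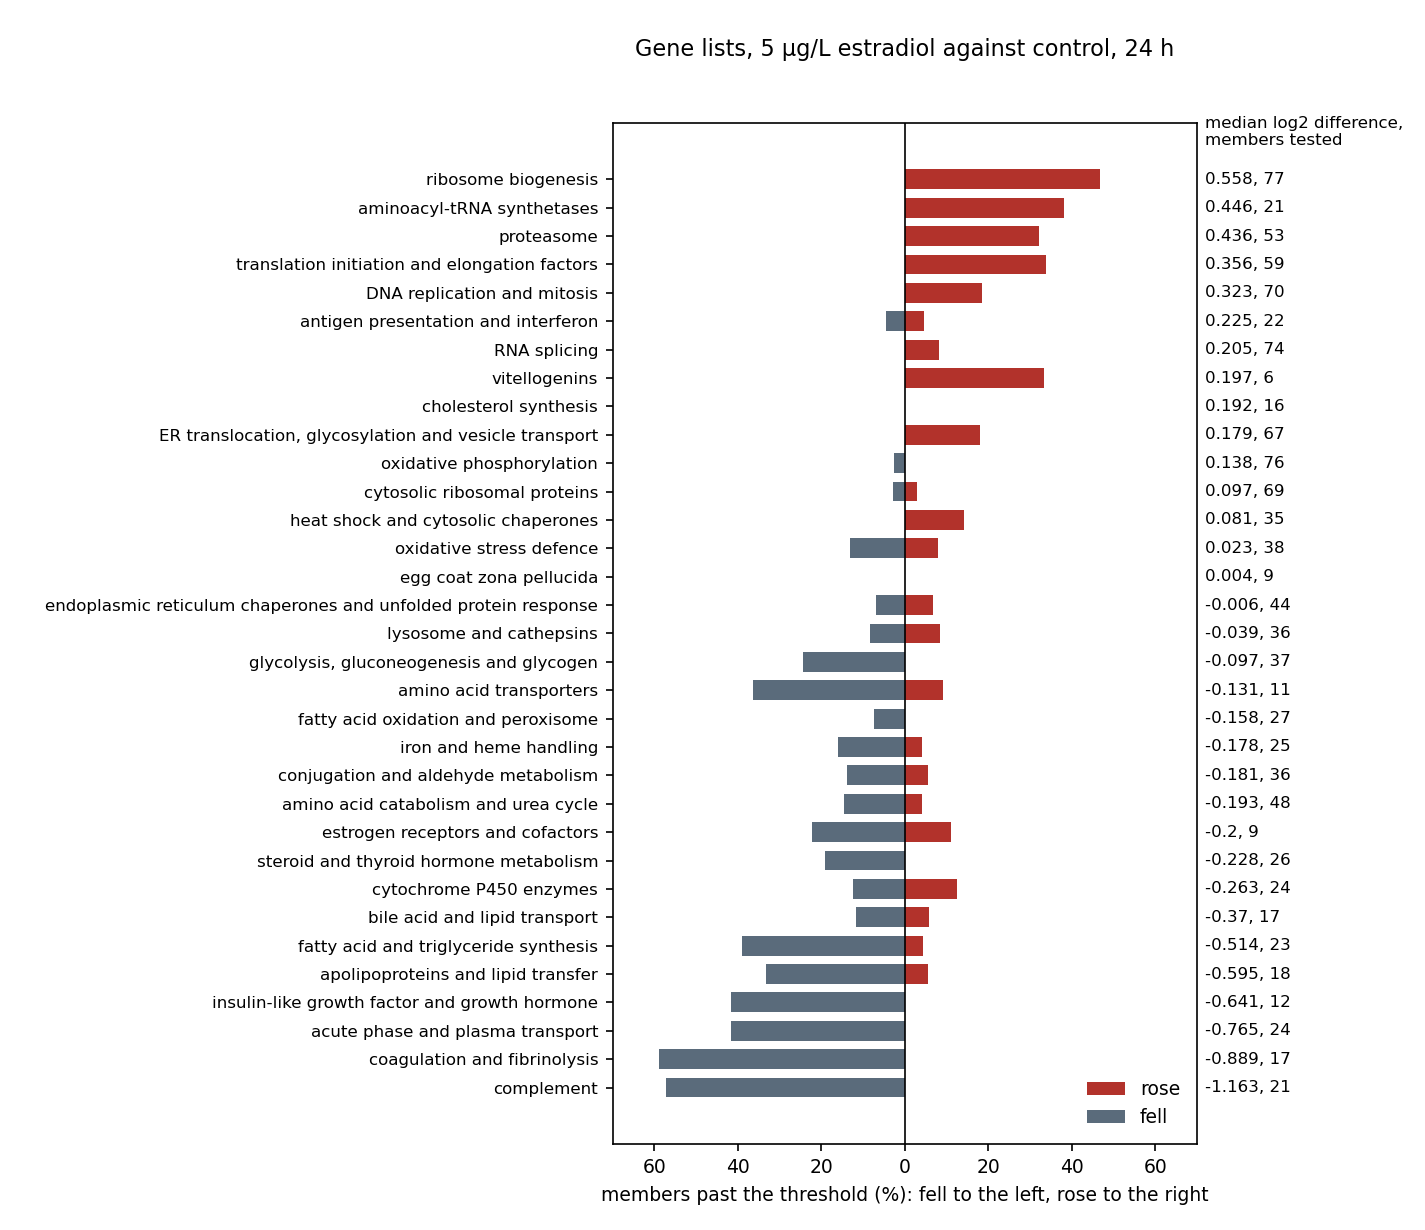
Percent of tested members that fell (bars to the left) and rose (bars to the right) in 5 µg/L estradiol livers against control livers at 24 h, for 33 gene lists ordered by their median log2 difference, which is printed at the right with the number tested. Coagulation (10 of 17) and complement (12 of 21) have the largest shares of falls, and ribosome biogenesis (36 of 77) has the largest share of rises.

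Marker genes of cell types were compared in the same way. The mean level of 5 hepatocyte markers was 1.06 to 1.88 in treated livers (median 1.48), against 1.87 to 2.79 in control livers (median 2.18). Of these markers 1 fell, ambp, a plasma protein gene, at -0.71 ± 0.22 (adjusted p = 0.0414). Its call ended under 13 of 24 alternatives, among them without any of treated arrays 1, 2, 4 and 5 or control arrays 2, 3, 4, 6 and 7, with differences of -0.62 to -0.75. With quantile normalization between arrays its difference was -0.23 (adjusted p = 0.74). The defining marker fabp10a, the liver fatty acid binding protein gene, had -0.64 ± 0.47 with the Cy5 spot saturated on 3 of 6 treated arrays, serpina1, the alpha-1-antitrypsin gene, had -0.72 ± 0.27 with 5 saturated, and tfa, the transferrin gene, had -0.89 ± 0.30 with 4 saturated. None of these 3 passed, and tfa did so without control array 5 at -0.99 (adjusted p = 0.0378), without treated array 3 at -1.08 (adjusted p = 0.0209) and without treated array 6 at -1.04 (adjusted p = 0.0313).

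Of 3 cholangiocyte markers, 2 fell. The keratin genes krt8 and krt18a.1 had differences of -1.27 ± 0.23 and -1.09 ± 0.27, and the mean level of the list was -0.77 to 0.60 in treated livers (median -0.13), against 0.41 to 1.59 in control livers (median 0.80). The other probe of krt18a.1 gave -1.38. With only the arrays compared krt18a.1 did not pass (adjusted p = 0.0555), nor with the replicate number as a block (adjusted p = 0.0874). The third marker, anxa4, had -0.48 ± 0.20 (adjusted p = 0.188). Markers of exocrine pancreas, with 0 of 5 called, averaged -0.84 to 1.00 in treated livers (median -0.37), against -1.29 to 0.64 in control livers (median 0.27). Erythrocyte markers, 0 of 3 called, averaged -1.56 to -0.46 in treated livers (median -1.13), against -2.11 to -0.23 in control livers (median -1.15). Markers of macrophages and neutrophils, 0 of 4 called, averaged -1.83 to -0.87 in treated livers (median -1.23), against -2.07 to -1.04 in control livers (median -1.68). The probes of their member mpx, the myeloperoxidase gene, disagreed, with 1.22 at the representative probe (adjusted p = 0.286) and -1.72 at the other (adjusted p = 3.08e-06). Of 3 testis markers 1 rose, sycp3, a gene of the meiotic chromosome axis, by 1.08 ± 0.20. Markers of lymphocytes, endothelium, stellate cells, skeletal muscle and ovary had 0 members called. Expression was measured relative to a liver pool, so these levels say nothing of how much of each cell type the tissue held, and their part in the list results above was not tested.

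Against the lower dose of 0.5 µg/L at 24 h, livers of the 5 µg/L dose differed at 829 probes (3.76%), 608 of them higher and 221 lower. By named gene 469 differed (5.12%), with 350 higher (3.82%) and 119 lower (1.3%). The 6 largest positive differences were in vtg7 (3.54 ± 0.54), esr1 (3.07 ± 0.34), pisd (2.94), nots (2.90), fkbp11 (2.83) and rtn1 (2.60). The 6 largest negative ones were in hmox1b (-2.34), elovl6 (-2.03), selenop2 (-1.95), the glucocorticoid receptor gene nr3c1 (-1.88), c9 (-1.73) and gatm (-1.68), whose enzyme makes the precursor of creatine. Without 5 µg/L arrays 2, 3 and 4 gatm did not pass, at -1.77 (adjusted p = 0.0728). Against control, 5 µg/L gave -1.50 at its representative probe and 0.03 at the other. The call of nr3c1 ended without any of 0.5 µg/L arrays 2 and 5 and 5 µg/L arrays 1, 3, 5 and 6, and without 0.5 µg/L array 2 its difference was -0.96. Levels of nr3c1 lay far below the pool, at -6.45 to -4.29 in 5 µg/L livers. That range holds all levels of control livers, -5.64 to -5.02. Array 2 of 0.5 µg/L stood apart from its group, at r = 0.592, and without it 1209 probes differed. Without 5 µg/L arrays 2, 3 and 4 the count was 490.

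Against the higher dose of 50 µg/L at 24 h the difference was small by count. Livers of 50 µg/L differed from those of 5 µg/L at 77 probes (0.349%), 39 higher and 38 lower, and by named gene 18 were higher (0.196%) and 19 lower (0.207%). Higher at 50 µg/L were mat2aa, which encodes the enzyme that makes S-adenosylmethionine (1.73 ± 0.26, limma adjusted p = 8.7e-05), cers2a, a ceramide synthase gene (1.43 ± 0.22), psat1, a gene of serine synthesis (1.30 ± 0.22), nots (1.27 ± 0.28), idh3b, a gene of the citric acid cycle (1.21 ± 0.20), and slc43a1a (1.14 ± 0.23). Lower at 50 µg/L were serpina7 (-2.66 ± 0.35, limma adjusted p = 7.8e-06), ucp1, which encodes a mitochondrial uncoupling protein (-1.85), cyp1a (-1.76), serpina1 (-1.64), c3a.1 (-1.60) and c9 (-1.59). The calls of mat2aa and serpina7 held under all 23 alternatives run. That of nots ended without 5 µg/L array 1 or without any of 50 µg/L arrays 3, 4 and 5, with differences of 1.02 to 1.22, and that of c3a.1 without 5 µg/L array 6 (-1.54) or 50 µg/L array 5 (-1.49). Without 5 µg/L arrays 2, 3 and 4 the count was 15 probes, and c3a.1, c9, cyp1a, nots, psat1, serpina1 and slc43a1a were no longer called. Arrays 3, 4 and 5 of 50 µg/L had weak signal, with 37.7% to 51.9% of probes above background in the Cy5 channel. Without these 3 arrays the count was 21 probes, the difference of nots was 0.64 (adjusted p = 0.9999) and that of ucp1 -1.56 (adjusted p = 0.202), and c3a.1, c9, psat1, serpina1 and slc43a1a did not pass either.

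The differences from the 24 h controls, which the 3 doses share, are given side by side. For 0.5, 5 and 50 µg/L they were 4.50, 6.81 and 7.29 in vtg3 and 1.82, 5.37 and 6.39 in vtg7, in which 0.5 µg/L did not pass (adjusted p = 0.0885). In esr1 they were 0.20, 3.27 and 3.60, in fkbp11 -0.44, 2.39 and 3.15, and in hsd17b3 -0.74, -2.18 and -2.2. In vtg7, esr1, fkbp11 and hsd17b3 the test did not call 50 µg/L different from 5 µg/L. It did not in vtg3 either, where saturated spots at 5 µg/L limit the comparison. In mat2aa they were -0.29, 0.75 and 2.49, and in psat1 -0.27, 0.11 and 1.41. At 5 µg/L mat2aa had an adjusted p of 0.0505 and passed without control array 5 at 0.88 (adjusted p = 0.0167), without treated array 4 at 0.82 (adjusted p = 0.047) and without treated array 6 at 0.82 (adjusted p = 0.0456), while psat1 and cers2a, at 0.11 ± 0.20 and 0.10 ± 0.21, were near 0. In serpina7 they were -1.25, -1.97 and -4.63, and in c9 -0.84, -2.57 and -4.16. The named genes that passed numbered 41 (0.447%) at the lowest dose and, beside the 699 above, 1441 (15.7%) at the highest, with 877 rises (9.56%) and 564 falls (6.15%). The 0.5 µg/L values and count include array 2, which stood apart from its group (r = 0.592). The comparison of 0.5 µg/L with controls was not run without that array.

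**Figure D5:**
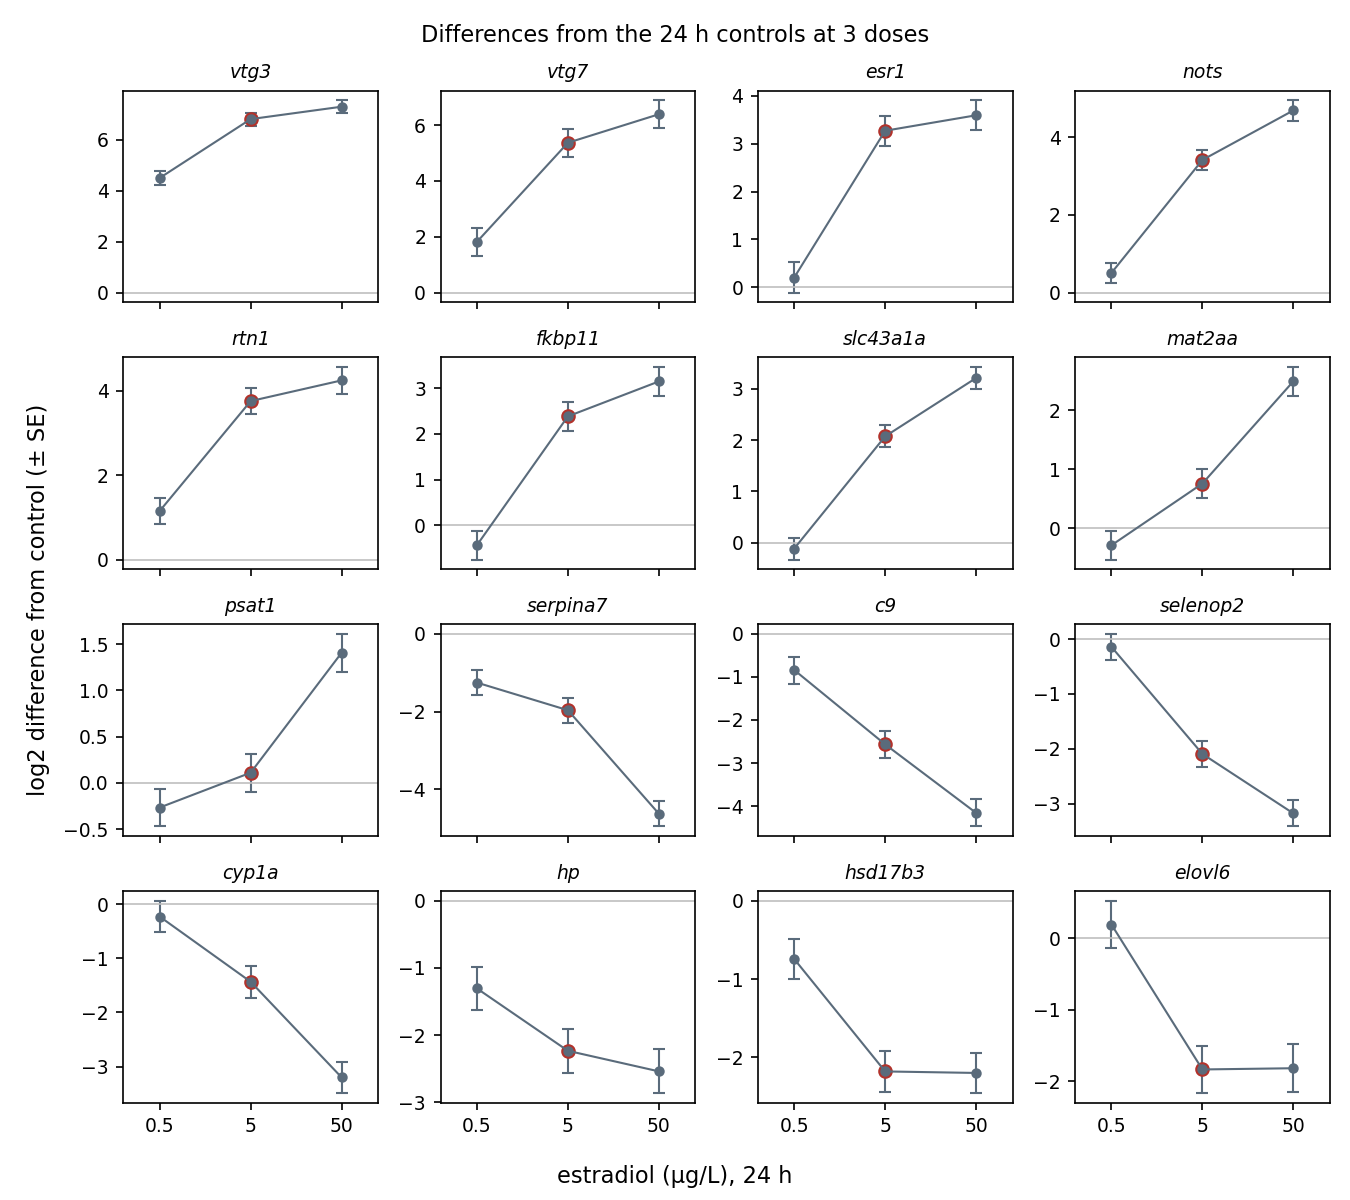
Log2 difference from untreated controls at 24 h, with its SE (vertical axis), at 0.5, 5 and 50 µg/L estradiol (horizontal axis) for 16 genes, with 5 µg/L as a red point. In vtg7, esr1 and hsd17b3 the 5 µg/L value lies nearer to that of 50 µg/L than to that of 0.5 µg/L, while in mat2aa, psat1 and serpina7 it lies nearer to that of 0.5 µg/L.

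The effect of 5 µg/L was also compared between times, as the difference from controls at 96 h minus that at 24 h. It differed at 281 probes (1.27%), with a positive change at 213 (0.966%) and a negative one at 68 (0.308%). By named gene 116 differences were positive (1.27%) and 38 negative (0.414%). Without 5 µg/L arrays 2, 3 and 4 of 24 h the count was 100 probes, and without 5 µg/L array 2 of 96 h it was 161. At 96 h, 1400 named genes passed against controls (15.3%), 903 upward (9.85%) and 497 downward (5.42%). Several genes with large rises at 24 h had larger ones at 96 h. The difference from controls was 5.90 at 96 h and 3.41 at 24 h in nots, 6.14 at 96 h and 3.75 at 24 h in rtn1, 5.62 at 96 h and 3.22 at 24 h in pax9, and 4.06 at 96 h and 1.66 at 24 h in pycard. The change of effect was 2.49 ± 0.41 in nots, 2.39 in rtn1, 2.4 in pax9 and 2.39 in pycard. With quantile normalization rtn1 and pax9 did not pass, at 1.52 (adjusted p = 0.0957) and 1.76 (adjusted p = 0.119), and pax9 did not pass without 96 h treated array 1 (2.21) or 2 (2.2). In vtg7 the differences were 7.62 at 96 h and 5.37 at 24 h, and the change did not pass. In vtg3 they were 7.31 at 96 h and 6.81 at 24 h, and the change did not pass. Saturated spots at 24 h limit this comparison.

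Other genes had a difference at 96 h and none that passed at 24 h in the fit described above. In scd, a stearoyl-CoA desaturase gene, it was 2.3 at 96 h and -0.18 at 24 h, and in hlcs, which encodes the enzyme that attaches biotin to carboxylases, 2.84 at 96 h and 0.49 at 24 h. In hpxa, the gene of the heme carrier hemopexin, it was -6.10 at 96 h and -1.26 ± 0.57 at 24 h (adjusted p = 0.224), a change of effect of -4.83 ± 0.87. In fabp10a it was -3.59 at 96 h and -0.64 at 24 h, in tgfbi, an extracellular matrix gene, -3.29 at 96 h and -0.43 at 24 h, in fbp1, a gluconeogenesis gene, -3.01 at 96 h and -0.48 at 24 h, and in pno1, a ribosome assembly gene, -3.25 at 96 h and -0.96 at 24 h. The alcohol dehydrogenase gene adh8a, at -3.59 at 96 h and -1.04 at 24 h, was among the 6 largest negative changes but kept its call under only 11 of 35 alternatives. The other probe of adh8a gave 0.002 at 24 h. With the controls of both times pooled the change of effect was -1.14 in adh8a (adjusted p = 0.447) and -1.68 in tgfbi, which still passed. Without 5 µg/L arrays 2, 3 and 4 of 24 h, scd, fabp10a and pno1 did not pass. Calls also ended without 96 h treated array 4 in scd (2.14), without 96 h treated array 1 or 2 in fabp10a (-2.77 and -2.73) and without 96 h treated array 3 in pno1 (-1.89). At 24 h some of these genes passed under alternatives. With pooled controls pno1 was -1.13 (adjusted p = 0.00916), adh8a -1.70 (adjusted p = 0.00629) and tgfbi -0.98 (adjusted p = 0.0106). With only the arrays compared pno1 was -0.96 (adjusted p = 0.0162) and hlcs 0.49 (adjusted p = 0.044). Array weights gave -1.08 in pno1 (adjusted p = 0.0119), and leaving out control array 1 gave -1.44 in adh8a (adjusted p = 0.019).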

How the data were processed

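Arrays were grouped by title. Per the labels' protocols, total RNA came from a Trizol extraction, and 10 µg of each sample and of the pool was labelled. The authors deposited log2 ratios of sample over pool. The scanner files of the 35 treated arrays hold the same values, and their raw brightness ratios (Cy5 over Cy3, log2) followed these with r between 0.903 and 0.989, so the direction is settled. Per the file headers, the scanner files further give the intensity of each spot and the percent of its pixels above background. A spot counted as above background with more than 50% of such pixels and as saturated at 65535. The authors' normalization and image software are not stated in the labels or headers.

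Of 23232 probes, 22046 with at least 3 values in each of 8 groups were tested, and arrays held 19009 to 22746 values. The annotation named 11724 probes and left 11508 unnamed, and 6997 of its 10121 symbols were updated through synonyms. A gene is represented by its probe with the highest mean Cy3 brightness over treated arrays. After median centring of every array, limma 3.58.1 (lmFit, contrasts.fit, eBayes; R 4.3.3) estimated 8 group means from all 50 arrays; data.table (version 1.17.8) and matplotlib 3.10.9 were also used. On simulated data with 200 of 22046 probes changed, the 24 h comparison recovered 20.9%, 73.1% and 97% of changes of 0.5, 1 and 2 on the log2 scale. Of 134 calls, 7 were false. The simulated noise was normal and independent between probes and arrays, and 1340 probes were called in the data, so these rates need not hold there. The number of arrays limits the precision.

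The comparison, gene lists and tests were chosen with earlier results of these data known. Named are the 15 largest rises and falls, the vitellogenins and estrogen receptors, up to 4 members of each list with the smallest p, up to 6 differences each way between doses and times, and some further members. Alternatives were the scaling, probe filters, the arrays in the fit, array weights, a variance trend, replicate number as a block, pooled controls, normexp (offset 50) with loess between treated groups, and each array left out. Promoter sequences were not analysed here.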

Additional observations from a re-analysis of the deposited data

Results flagged for a closer look

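In 24 of the genes named in this text, 1 array of a group lay far from the others of that group. Chance alone also sets arrays apart, and its part in these genes was not tested. Control array 1 accounted for 10 of them. Its level was 2.17 in calr (other controls 0.01 to 0.95), -1.1 in eif4ebp1 (-0.06 to 0.63), 0.1 in elovl6 (1.33 to 2.24) and -0.93 in idh3b (-0.42 to -0.11). It was 3.12 in krt18a.1 (0.89 to 1.91), 1.32 in krt8 (-0.54 to 0.15) and 0.75 in ncoa4 (-0.11 to 0.28). It was 0.43 in pygl (1.27 to 1.89), -2.4 in rtn1 (-1.44 to -0.6) and 1.93 in xbp1 (0.64 to 1.13).

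Other control arrays stood apart in 6 genes. Array 2 had levels of 0.03 in hlcs (other controls 0.31 to 0.54), 2.95 in kng1 (3.62 to 4.08) and -1.03 in pomp (-0.38 to 0.17). Array 3 had 3.96 in serpina1 (2.15 to 2.98), and array 4 had 2.38 in g6pc1a.1 (3.66 to 4.58) and 1.72 in serpind1 (2.35 to 2.82).

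Among treated livers, array 3 had -0.46 in gcga (other treated arrays 2.02 to 3.41) and -1.28 in ins (1.56 to 2.76), the hormone genes of the endocrine pancreas. Array 2 had 1.88 in nupr1b (2.84 to 3.27) and 1.03 in vtg4 (0.01 to 0.32). Array 4 had 0.4 in dgat2 (-0.36 to -0.07) and 3.98 in igfbp1a (2.94 to 3.28), array 5 had 1.99 in tdo2a (1.31 to 1.54) and array 6 had 0.83 in pax9 (1.81 to 2.29).

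Among the genes named in this text, the effect of 5 µg/L estradiol differed between times in 22, by limma's test of the difference itself. Some of these were named because this difference was large, so the count is partly set by that choice. Over all 9169 named genes the effect differed in 154 (1.68%). The change is given as the effect at 96 h minus that at 24 h. It was positive in nots (2.49), scd (2.48), pax9 (2.4), pycard (2.39), rtn1 (2.39), hlcs (2.36), ctsla (2.35), cyp2k16 (2.13), npc2.1 (1.8), psat1 (1.71), wars1 (1.2) and lman1 (1.1). It was negative in hpxa (-4.83), fabp10a (-2.95), tgfbi (-2.86), adh8a (-2.55), fbp1 (-2.53), pno1 (-2.28), comtd1 (-1.85), rps6 (-1.59), pgm1 (-1.5) and mcm6 (-1.31). The effect on ctsla was 0.90 at 96 h and -1.45 at 24 h, and that on mcm6 -0.10 at 96 h and 1.21 at 24 h. With the controls of both times pooled the change was 0.81 in ctsla (adjusted p = 0.585), -0.76 in pgm1 (adjusted p = 0.221), 0.63 in lman1 (adjusted p = 0.222) and 0.44 in wars1 (adjusted p = 0.61), and -1.03 in rps6, which still passed. Of these calls wars1 was kept under 14, lman1 under 16 and mcm6 under 17 of 35 alternatives.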

How the results depend on the processing

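No named gene that passed changed sign in its comparison under any alternative run. Rises and falls at 5 µg/L against control (645 and 695) numbered 481 and 289 without treated arrays 2, 3 and 4, 826 and 756 with quantile normalization and 1213 and 1155 with array weights. Of 129 genes named, 104 passed, and 81 of these kept their call under all of up to 24 alternatives. The count for 5 µg/L against control (1340 probes) was 2368 with array weights, 2226 with the controls of both times pooled and 770 without treated arrays 2, 3 and 4, and 1067 to 1378 with each array left out. The count for 50 against 5 µg/L (77) was 123 with quantile normalization, 50 with only the arrays compared, 156 with array weights, 21 without 3 arrays of 50 µg/L with low signal and 15 without arrays 2, 3 and 4 of 5 µg/L, and 51 to 83 with each array left out, the lowest without 5 µg/L array 4. That for 5 against 0.5 µg/L (829) was 508 with only the arrays compared, 2163 with array weights and 490 without the 3 arrays, and 600 to 1209 with each left out. That for the change of effect between times (281) was 100 without the 3 arrays and 161 to 345 with each left out. The cause of these shifts was not tested, though fewer arrays enter the fits that leave some out. The gene list members changed were 249, 260 with the mean over all probes of a gene and 168 without the 3 arrays.

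Replicate numbers did not pair the arrays: same-numbered treated and control arrays correlated in their deviations at r = -0.138 to 0.382, and 1 of 6 treated arrays correlated best with its own number. With the replicate number as a block, in fits to only the arrays compared, the counts were 690, 15, 320 and 135 probes for the 4 comparisons in the order above. Fits to the same arrays without the block gave 1223, 50, 508 and 230. Scan and slide as a block were not run, since the fields were not held for both groups. Saturated spots and the unknown signal of the control arrays limit the largest differences.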

Other observations

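Among the 32 probes that rose by more than 16-fold at 24 h, 16 have no gene name here. Their differences ran from 5.90 to 7.79 as measured, and these are minimums with no order among them, since the Cy5 spot was saturated on all 6 treated arrays for 13 of them and on 5 for the other 3. Of all probes that changed, 175 of the 645 that rose and 295 of the 695 that fell have no name here.

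The 16 probes of ccnd1 fell into 2 sets by probe number. The 12 whose numbers lie next to or near those of unnamed probes with large rises had differences of 0.58 to 3.53 (median 2.60), and 11 of them rose. Those directly next to such a probe had 2.15 to 3.53, and the rest of the 12 had 0.58 to 2.80. The other 4 had differences of 1.40 to 1.96 (median 1.51), and 4 rose. Probes of pax9 and slc22a23 also have numbers next to those of unnamed probes with large rises. So has a probe of gapdh, which gave -0.86. The part of the unnamed probes in these differences was not tested.

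Of lists not described above, bile acid and lipid transport had 1 rise and 2 falls among 17 genes, with a median of -0.37. Of 22 genes of antigen presentation and interferon, 1 rose and 1 fell, with a median of 0.23. Over all named genes, 4.18% rose and 3.45% fell. Further members of the lists were gosr2, a Golgi SNARE gene, at 0.88 ± 0.17, snrpe, a core gene of spliceosomal ribonucleoproteins, at 0.87 ± 0.16, and cct3, a subunit gene of the cytosolic chaperonin, at 0.65 ± 0.15. The gene keap1a, which encodes a repressor of the oxidative stress response, had -1.13 ± 0.20, with the Cy5 spot above background on 2 of 6 treated arrays. The differences of ucp1 (-1.15 ± 0.33, adjusted p = 0.0224) and idh3b (0.61 ± 0.19, adjusted p = 0.0358) passed but lost their calls under 9 and 11 of 24 alternatives. For ucp1 these include leaving out any of treated arrays 2, 3 and 5 or control arrays 1 and 7 (-1.0 to -1.04), and for idh3b any of treated arrays 1, 2, 4, 5 and 6 or control arrays 1, 2, 4 and 8 (0.49 to 0.62).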
